A study of Mus musculus with 10 samples.

Results

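The Rab genes encode the largest branch of the Ras superfamily of small GTPases. All 58 rows of the platelet count table whose symbol is Rab followed by a number, with or without a letter and a further digit, were taken as members, of 23420 rows in all. Genes that act on Rab proteins, such as their exchange factors, are not members. The choice used the symbols alone and no measured value. Platelets, which have no nucleus and carry RNA inherited from their parent megakaryocytes, were sorted from the peripheral blood of adult mice into a Tomato+ and a Tomato- fraction. Each fraction gave 5 libraries, numbered 1 to 5 in the labels, which do not say what a shared number means. Tomato is a red fluorescent protein. The sources used here name neither the gene or promoter that drives it, nor a strain or treatment of the mice. They also do not tie each library to an animal, so that p-values measure the spread between libraries alone, which may be technical. The question put to the Rab genes is which of them platelets hold, and whether the levels depend on the reporter.

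Rab proteins switch between an inactive form bound to GDP and an active form bound to GTP. Exchange factors load them with GTP at a particular membrane, the active form recruits effectors such as tethers and motors, and GTPase activating proteins switch it off. Most carry lipid groups on cysteines at the end of the protein, which hold them in the membrane. In platelets and megakaryocytes, members of the family are known for the formation of granules, for their secretion, and for the traffic of surface receptors through endosomes.

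The lipid anchor can be read in the coding ends of the members. The last 30 coding bases before the stop codon, 5′ to 3′ on the coding strand, are shown for the 7 members with the largest mean share of counts after Rab27b, taken from GENCODE M21 transcripts (GRCm38), with cysteine codons (TGT or TGC) among the last 5 codons in capitals:
Rab22a: cagccatcggagccaaagcgaagcTGCTGC
Rab11a: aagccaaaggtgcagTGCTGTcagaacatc
Rab10: ggcgtgacgggctggaagagcaagTGCTGC
Rab6a: caaccagtcaatgaaggcggcTGTtccTGC
Rab11b: cccaacaagctgcagTGCTGCcagagcctg
Rab1b: cctgtgaagcctgctagcggtggcTGCTGC
Rab8b: aagaccagtttcttccgcTGTtctctgctt

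These ends fall into 4 arrangements. Rab22a, Rab10 and Rab1b end in 2 cysteine codons. Rab6a has them at the third last and the last position. In Rab11a and Rab11b the pair stands 3 codons before the end, at the fifth and the fourth last position. Rab8b has 1 cysteine codon, at the fourth last position. Among the 56 members read in this way (Rab18 and Rab27b were not analysed here), 48 had 2 cysteine codons among the last 5 and 8 had 1. Counts were found for 27 of these 56 members. They were found for 9 of the 14 members that end in a pair and for 7 of the 19 with cysteine codons at the third last and the last position. For a pair at the fifth and the fourth last position the share was 4 of 6. It was 3 of 6 at the fourth and the third last position, and 0 of 3 at the third and the second last. Of the 8 members with a single cysteine codon, 4 had counts.

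Related members differed along their coding sequences. In 13 pairs of related members, coding sequences were 70.1 to 79.2% identical, and the longest identical stretch in any pair was 38 bases, in Rab1 (named Rab1a in GENCODE M21) and Rab1b. Of the 29 members with counts, 12 shared no stretch of 50 bases with a transcript of another gene and 11 shared under 10% of theirs. The other 6 were Rab43 (74.5%), Rab4b (58.1%), Rab2b (57%), Rab6a (19%), Rab11b (13.6%) and Rab7 (12.7%), which share sequence with pseudogenes or overlapping gene models, and their counts are uncertain to that extent.

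Transcripts were found for 29 of the 58 members, at 1 count or more in any library. The remaining 29 had 0 counts in all 10 libraries, where 3 counts would have given 0.185 to 0.554 CPM (counts per 1000000 counts of the library) depending on the library. Such limits cover counting error only, because the reads carry no molecular identifiers. Across all rows of the table, 20% (4692 of 23420) had a count in any library. Total counts, in units of 1000000 (M), ranged from 5.41 to 16.2 M per library, with 11.9 ± 3.57 M in the Tomato+ and 8.55 ± 2.16 M in the Tomato- libraries (mean ± SD, n = 5 each).

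**Figure D1:**
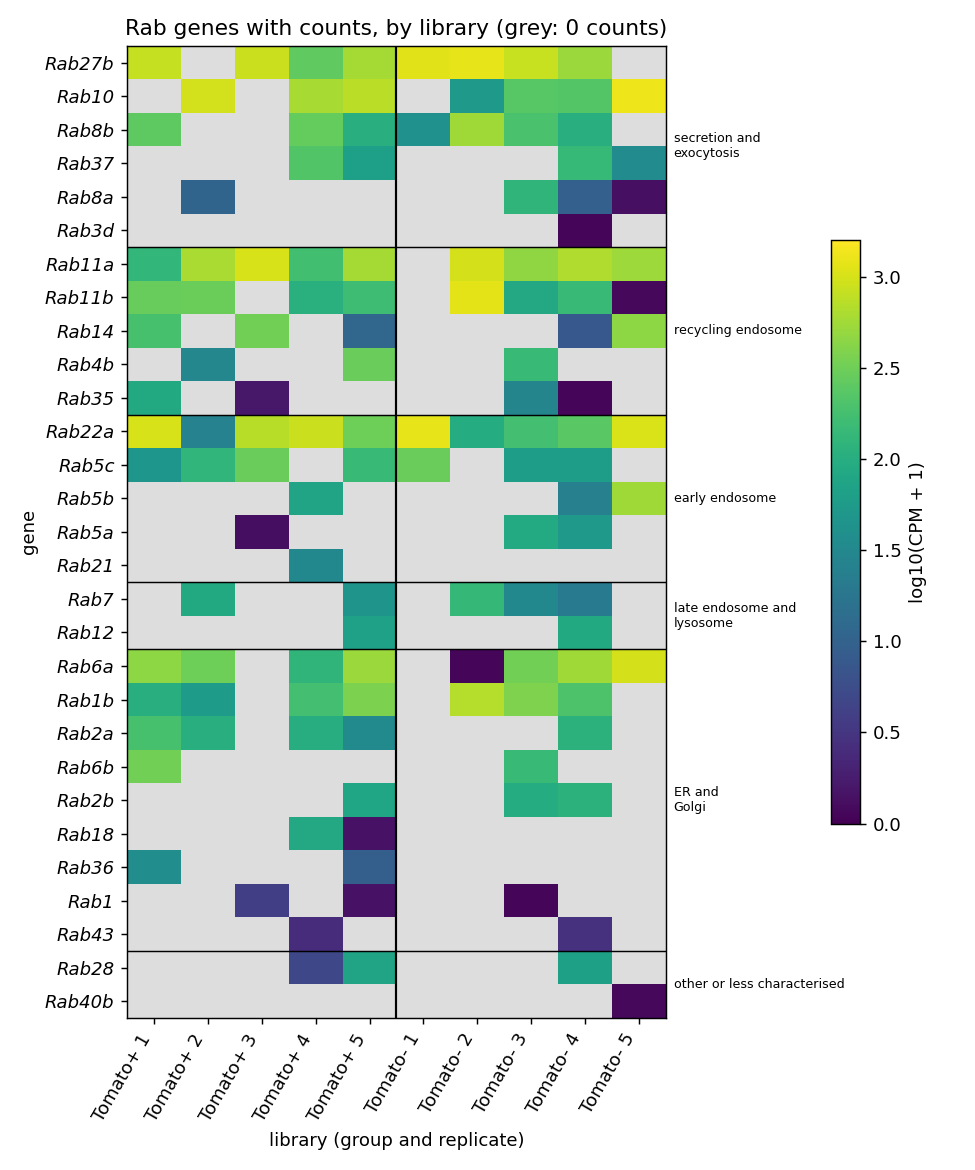
The plot shows the level of the 29 Rab genes with counts (rows, grouped by role) in the 10 libraries (columns, Tomato+ left of the vertical line) as log10(CPM + 1), with 0 counts in grey. Rab22a is the 1 gene coloured in every column, and 161 of the 290 fields are grey.

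Most members were present in some libraries and missing from others. Rab22a alone had counts in all 10 libraries, 8 members had them in 7 to 9, 6 members in 4 to 6, and 14 members in 3 or fewer. Of the 290 values of the 29 members, 161 (55.5%) were 0, 11 (3.79%) were 1 to 9 counts, and 118 (40.7%) were 10 counts or more. A member was thus either well counted in a library or not seen there, with few values between. The number of libraries with a count can be set beside that of other genes of like abundance. Among all 642 genes with a mean level from 100 to under 1000 CPM, the median gene had counts in 8 libraries and 16.2% had them in every library. The 9 Rab genes in that range also had a median of 8, and 1 of them was in every library. From 10 to under 100 CPM the median was 3 both for all 1425 genes and for the 13 Rab genes, and from 1 to under 10 CPM it was 1 for all 1202 genes and 2 for the 3 Rab genes.

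**Figure D2:**
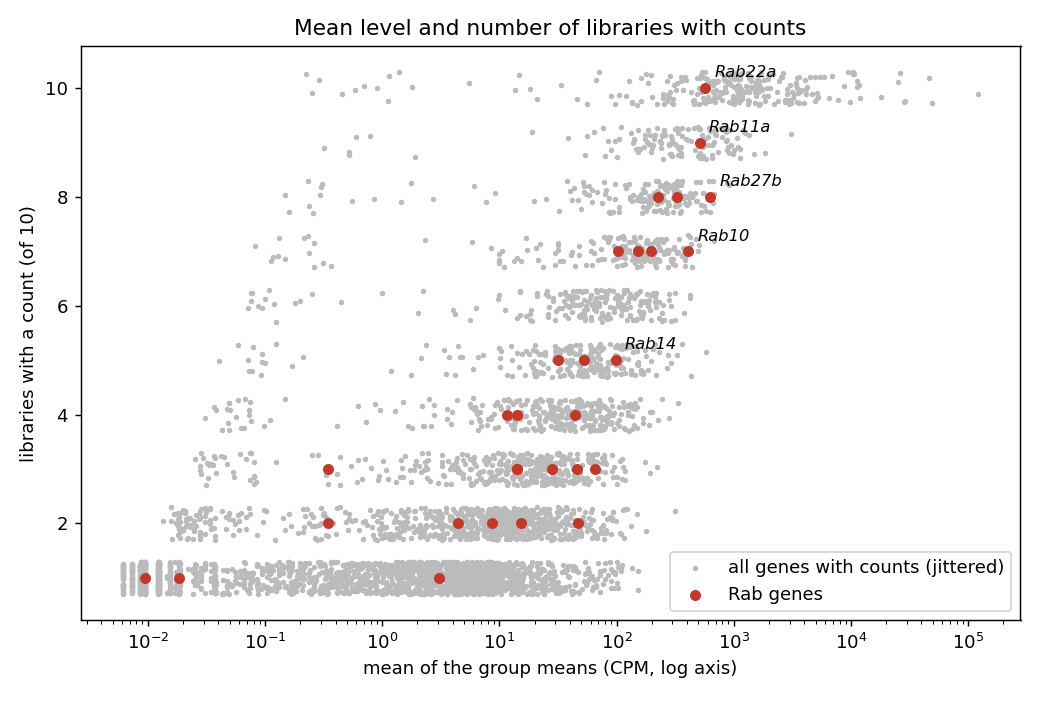
Each grey point is a gene with counts (moved at random by a small vertical distance) and each red point a Rab gene, by its mean level in CPM (horizontal, log axis) and the number of libraries with a count (vertical). The Rab genes lie within the cloud of all genes, with Rab22a in 10 libraries, Rab11a in 9 and Rab27b in 8.

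The number of Rab genes in a library varied more within the groups than between them. Tomato+ replicates 1 to 5 held 13, 11, 8, 15 and 20 Rab genes, and Tomato- replicates 1 to 5 held 4, 9, 17, 22 and 10. The means were 13.4 ± 4.51 and 12.4 ± 7.09 (SD, n = 5 each). The most Rab genes stood in the libraries with the most detected genes of any kind: Tomato- replicate 4 (2430 genes), Tomato+ replicate 5 (2450) and Tomato- replicate 3 (1838). Tomato- replicates 1, 2 and 5 had 902, 978 and 807 detected genes, all under 1000, whereas no Tomato+ library had fewer than 1118. Whether this difference in detected genes plays a part in the values of single Rab genes was not tested.

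Summed over the family, Rab transcripts made up a mean of 0.341% of counts in Tomato+ libraries and 0.385% in Tomato- libraries. The sums were 3926, 2626, 3239, 3098 and 4163 CPM in Tomato+ replicates 1 to 5, and 2685, 4888, 3424, 3333 and 4915 CPM in Tomato- replicates 1 to 5. The 2 Tomato- libraries with the highest sums, replicates 2 and 5, lay above every Tomato+ library, and the other 3 lay within the Tomato+ range. The means were 3411 ± 627 and 3849 ± 1002 CPM. With the trimmed mean (TMM) scaling that the test uses, their order turned, at 3922 ± 791 in Tomato+ and 3702 ± 710.3 in Tomato-. In bulk samples, a smaller share of platelets with a transcript and less of it per platelet cannot be told apart.

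**Figure D3:**
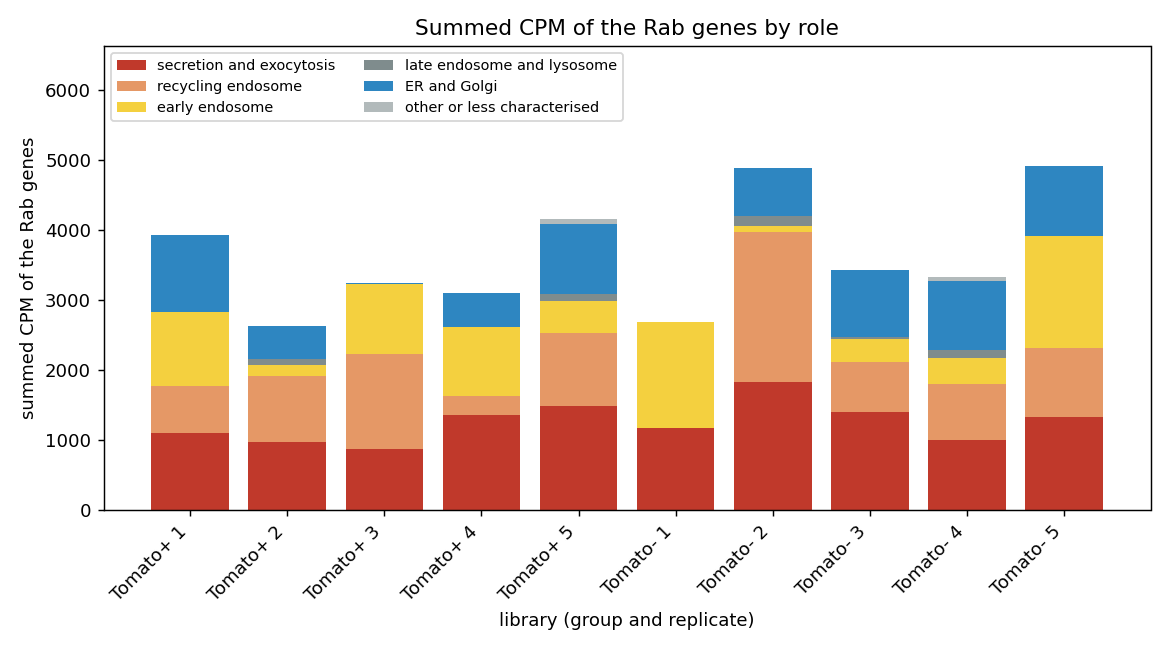
Bars give the summed CPM of the Rab genes in each library, divided by the role of the protein. Every library holds Rab genes of secretion and of the early endosome, and Tomato- replicate 1 shows those 2 roles alone.

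Ranked by CPM, Rab27b came first with a mean of 628 CPM over the 2 group means, followed by Rab22a (572), Rab11a (515), Rab10 (409), Rab6a (328), Rab11b (225), Rab1b (197), Rab8b (152), Rab5c (103) and Rab14 (98.9). The first 3 made up 47.2% and the first 10 made up 88.9% of the family's CPM. A long transcript yields more fragments than a short one, so levels of different genes were compared per kb of exon. On that scale Rab11a came first with 172 CPM per kb, followed by Rab10 (116), Rab6a (88.0), Rab1b (86.7), Rab22a (79.3) and Rab27b (58.8), which has 10.7 kb of annotated exons. Rab14 left the first 10 on that scale and Rab2a entered. Per kb of the longest transcript, Rab11a (220.5) and Rab10 (116) again came first, but Rab1b (103) passed Rab6a (102), Rab27b (91.2) passed Rab22a (79.9), and Rab4b entered the first 10 in place of Rab2a.

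Neighbours in this order were not separated by the libraries. Per kb, Rab11a was above Rab10 in 5 libraries and below it in 4, with neither counted in the other one. Rab11a was above Rab27b in 8 of 10 libraries and above Rab22a in 7. Rab10 was the highest Rab gene per kb in 4 libraries, Rab11a in 3, Rab22a in 2 and Rab1b in 1 (Tomato- replicate 3).

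No Rab gene was called different between the 2 platelet fractions. The filter on low counts left 12 of the 58 members, and 0 were higher and 0 lower (edgeR quasi-likelihood test, Benjamini-Hochberg adjusted p = 0.9996 for each of the 12). Over all 1016 genes tested the called share was 0%, and the share with an unadjusted p under 0.05 was 0.886% (9 genes). No Rab gene had an unadjusted p under 0.05, and the smallest was 0.536, for Rab2a. The count called was also 0 in DESeq2 and in limma voom, where 0 and 1 Rab genes had an unadjusted p under 0.05. The groups did not separate in the CPM of any Rab gene with counts. Separation was rare among genes of any kind, at 0.591% of all genes tested and 0.149% of all genes with a count. Without the 3 Tomato- libraries with under 1000 detected genes, 24 Rab genes were tested and again 0 were called in edgeR (smallest adjusted p = 0.985), with 2 Tomato- libraries left.

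The log2 fold changes, Tomato+ over Tomato- on the TMM scale, were positive for 6 Rab genes and negative for 6, against 58.3% positive among all genes tested. Their median was 0.07, beside 0.21 over all genes tested. With scaling by total counts the median was -0.25 for the Rab genes (5 positive, 7 negative) and -0.03 over all genes tested. Standard errors ran from 1.2 for Rab22a to 2.92 for Rab14, around the median of 2.29 over all genes tested. All 12 intervals (95%) included 0, and none was narrow enough to exclude a 2-fold difference in either direction. The test therefore does not show that any Rab gene was alike in the 2 fractions.

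**Figure D4:**
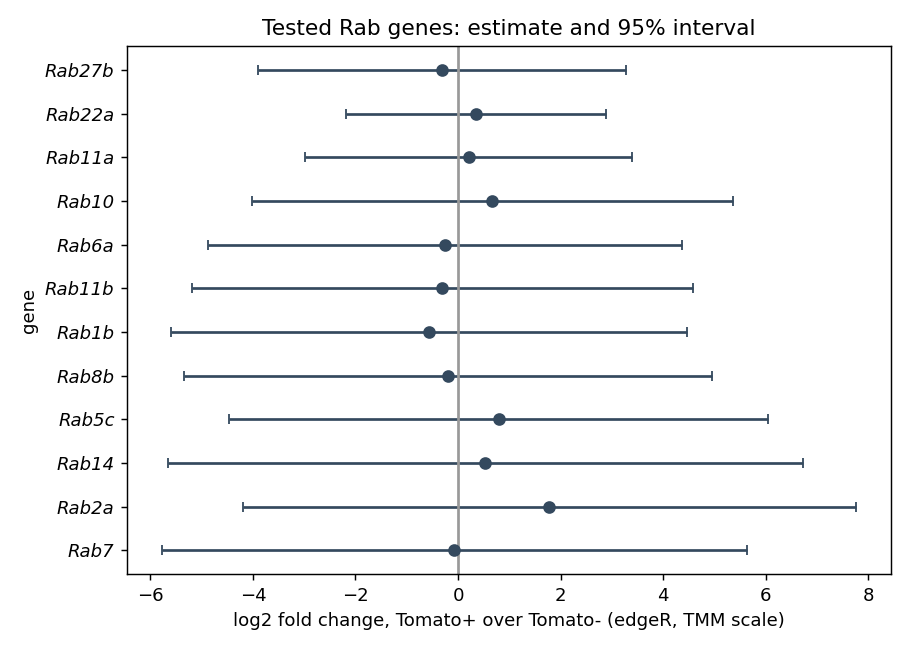
Points are the log2 fold changes (Tomato+ over Tomato-, horizontal) of the 12 tested Rab genes and bars their 95% intervals. Every bar crosses 0, and the narrowest, of Rab22a, runs from -2.18 to 2.89.

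Of the 13 Rab genes with roles in secretion, 6 had counts. Rab27b (chromosome 18, 69979131 to 70141605, minus strand, GRCm38) encodes the Rab that controls secretion of platelet dense granules, the stores of serotonin and ADP. It had 839, 0, 874, 260.3 and 587 CPM in Tomato+ replicates 1 to 5, and 1133, 1211, 848, 529 and 0 CPM in Tomato- replicates 1 to 5. Each group thus had 4 libraries at 260.3 CPM or more and 1 with none, and the ranges overlapped. The means were 512 ± 377 and 744 ± 495 CPM (log2 fold change -0.31, SE 1.69, edgeR adjusted p = 0.9996). Its relative Rab27a (chromosome 9, 73044854 to 73097629), which acts on melanosomes and cytotoxic granules, had 0 counts in all 10 libraries, as had the 3 genes Rab3a, Rab3b and Rab3c of synaptic and endocrine vesicles. Rab3d, of secretory granules, had 1 count in 1 library.

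Rab10, which acts in the transport of vesicles to the plasma membrane (chromosome 12, 3247428 to 3309969, minus strand), had 0, 958, 0, 600.2 and 729 CPM in Tomato+ and 0, 52.9, 235, 219 and 1297 in Tomato- replicates 1 to 5. The highest value stood in Tomato- replicate 5, and the next 3 in Tomato+. The log2 fold change of 0.67 (SE 2.21) was 2.02 without Tomato- replicate 5 and 0.029 without Tomato+ replicate 2. Rab8b, of post-Golgi exocytosis, had 254, 0, 0, 279 and 100.3 CPM in Tomato+ and 40.7, 557, 193, 99.7 and 0 in Tomato- (log2 fold change -0.20, SE 2.42). Its relative Rab8a was counted in 4 libraries, at 9.64 CPM in Tomato+ replicate 2 and at 122, 8.59 and 0.370 CPM in Tomato- replicates 3 to 5. Per kb, Rab8b was above Rab8a in 7 libraries and below it in 2. Rab37, found on secretory granules, had counts in 2 libraries of each group, 212 and 62.5 CPM in Tomato+ replicates 4 and 5, and 137 and 34.0 CPM in Tomato- replicates 4 and 5.

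**Figure D5:**
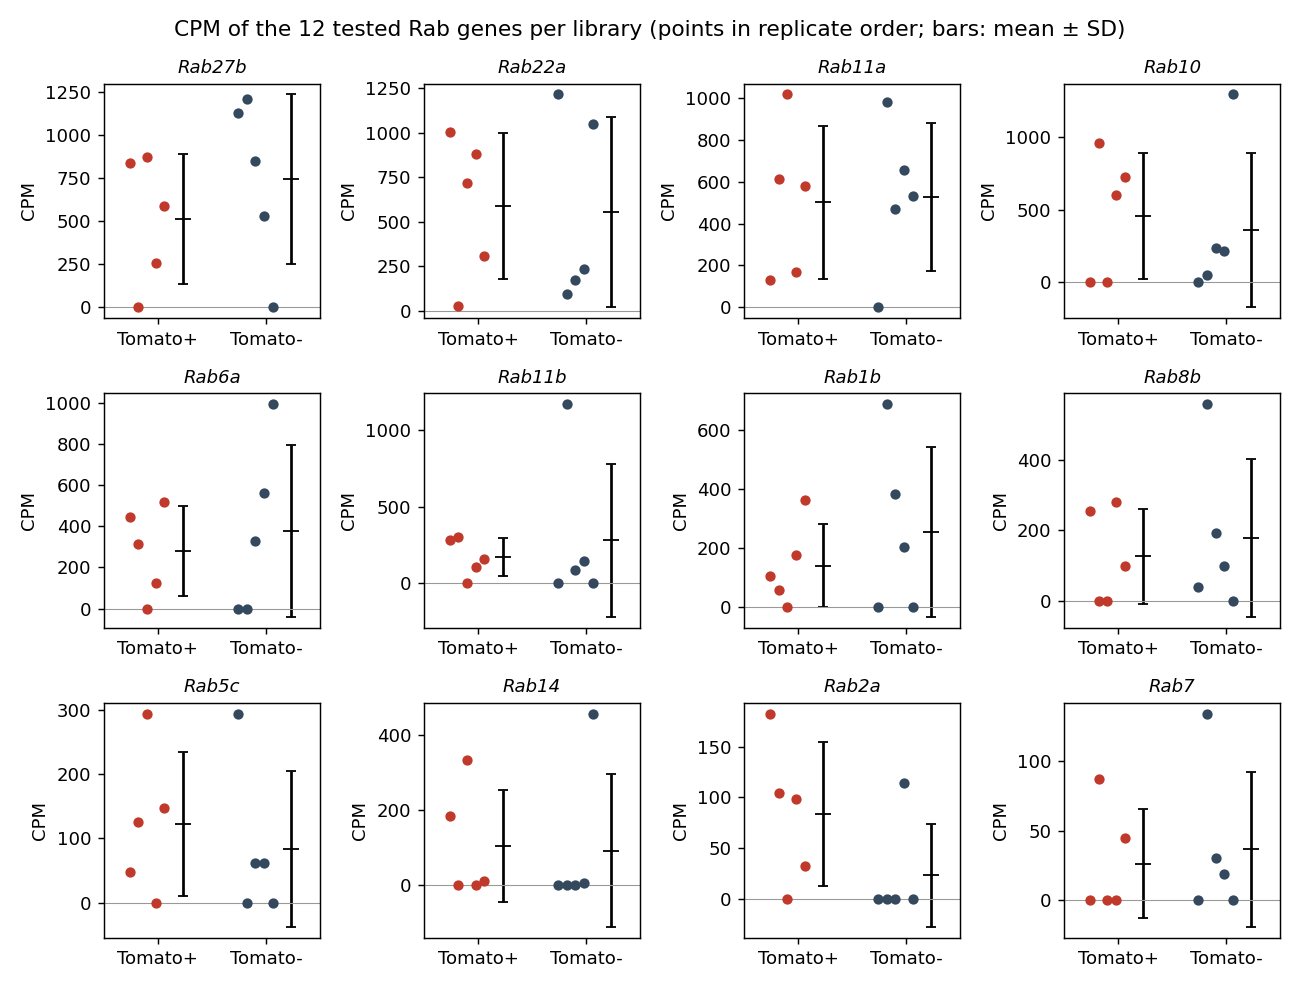
Points give the CPM of the 12 tested Rab genes in each library, replicates 1 to 5 from left to right within a group, with the mean and SD as a bar at the right. In every panel the points of Tomato+ and Tomato- overlap, and in 11 of the 12 panels at least 1 library of a group is at 0.

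Rab32 and Rab38, which deliver cargo to melanosomes and platelet dense granules while these form, both had 0 counts in all 10 libraries.

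Among the 7 Rab genes of recycling endosomes, 5 had counts. Rab11a (chromosome 9, 64715299 to 64737758, minus strand), which returns endocytosed receptors to the surface, had 129.8, 614, 1018, 171 and 582 CPM in Tomato+ and 0, 981, 471, 655 and 530.0 in Tomato-. All but Tomato- replicate 1 were above 100 CPM. The means were close, at 503 ± 365 and 527 ± 355 CPM, with a log2 fold change of 0.20 (SE 1.5). Rab11b (chromosome 17, 33742484 to 33760530, minus strand) had 282, 304, 0, 106 and 160.2 CPM in Tomato+, and 0, 1168, 83.2, 144 and 0.185 in Tomato-. Tomato- replicate 2 held 51.9% of the CPM summed over all libraries for this gene. Its log2 fold change was -0.31 (SE 2.30) with all libraries, 1.51 without Tomato- replicate 2 and 0.03 without Tomato+ replicate 3.

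Rab14, which acts between the Golgi and endosomes, was counted in 5 libraries, at 184, 332 and 10.4 CPM in Tomato+ replicates 1, 3 and 5 and at 6.61 and 456 CPM in Tomato- replicates 4 and 5. Its log2 fold change of 0.53 (SE 2.92) was 6.14 without Tomato- replicate 5 and -0.71 without Tomato+ replicate 3. Rab4b, of fast recycling, had 29.6 and 291 CPM in Tomato+ replicates 2 and 5 and 141 CPM in Tomato- replicate 3. Rab4a, its relative in the same pathway, had 0 counts throughout. Rab35 was counted in 4 libraries, with 87.7 CPM in Tomato+ replicate 1 as the highest value.

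Of the 8 Rab genes of early endosomes, 5 had counts. Rab22a (chromosome 2, 173659760 to 173707343, plus strand), which acts in sorting from early endosomes, had 1007, 25.1, 718, 880.2 and 311 CPM in Tomato+ and 1217, 93.8, 174, 237 and 1053 in Tomato-. Even this member, counted everywhere, differed 48.5-fold between its highest and lowest library. The lowest value stood in Tomato+ replicate 2, and the next lowest, 93.8, 174 and 237 CPM, in Tomato- replicates 2 to 4. The means were 588 ± 409.6 and 555 ± 535 CPM (log2 fold change 0.36, SE 1.2). Rab31, the closest relative of Rab22a, had 0 counts in every library.

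The Rab5 genes, which drive the fusion of early endosomes, were counted unevenly. Rab5c had 47.5, 126, 293, 0 and 147 CPM in Tomato+ and 294, 0, 61.1, 62.0 and 0 in Tomato- (log2 fold change 0.79, SE 2.47, with 2.21 without Tomato- replicate 1 and 0.19 without Tomato+ replicate 3). Rab5b was counted in 3 libraries, of which Tomato- replicate 5, at 553 CPM, held 85.1% of its summed CPM. Rab5a had 0.307 CPM (2 counts) in Tomato+ replicate 3 and 88.3 and 52.7 CPM in Tomato- replicates 3 and 4. Each library but Tomato- replicate 2 held counts of at least 1 of the 3 genes. Rab21, known for the traffic of integrins, had counts in Tomato+ replicate 4 alone, at 30.3 CPM.

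Late endosomes were represented by 2 of 6 genes. Rab7 (chromosome 6, 87999106 to 88045270, minus strand), which directs late endosomes to lysosomes, had 87.2 and 44.6 CPM in Tomato+ replicates 2 and 5 and 134, 30.2 and 19.0 CPM in Tomato- replicates 2 to 4. The other 5 libraries had none, and the log2 fold change was -0.07 (SE 2.69). Rab12 had 66.6 CPM in Tomato+ replicate 5 and 86.3 CPM in Tomato- replicate 4. Rab9, which returns receptors from late endosomes to the Golgi, and Rab9b were at 0 counts, as were Rab7l1 (named Rab29 in GENCODE M21) and Rab24.

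Of the 16 Rab genes placed at the endoplasmic reticulum and Golgi, 9 had counts. Rab6a (chromosome 7, 100607410 to 100641268, plus strand), of transport through and from the Golgi, had 447, 314, 0, 123 and 517 CPM in Tomato+. In Tomato- it had 0, 0.125, 329.8, 559.5 and 992 CPM, where 0.125 CPM is 1 count. The 3 Tomato- libraries with substantial counts lay at or above the middle of the Tomato+ range and the other 2 at its foot (log2 fold change -0.25, SE 2.18). Rab1b (chromosome 19, 5099205 to 5107072, minus strand), which acts in transport from the endoplasmic reticulum to the Golgi, had 105, 55.4, 0, 174 and 364 CPM in Tomato+ and 0, 689, 382, 201 and 0 in Tomato- (log2 fold change -0.56, SE 2.37). Its relative Rab1, with the same role, had 25 counts in all, 19 of them in Tomato+ replicate 3. Per kb, Rab1b was above Rab1 in 7 libraries and below it in 1.

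Rab2a, of transport between the endoplasmic reticulum and Golgi, had the log2 fold change farthest from 0 among the 12 tested Rab genes. It was counted in 4 Tomato+ libraries, at 183, 104, 98.3 and 32.4 CPM in replicates 1, 2, 4 and 5, and in 1 Tomato- library, replicate 4, at 114 CPM. That 1 library lay above 3 of the 4 counted Tomato+ libraries. Tomato+ replicate 3 had 0 counts, as had all other Tomato- libraries, so the groups overlapped with or without Tomato- replicate 4. The log2 fold change of 1.78 (SE 2.81, 95% interval -4.19 to 7.76) did not pass. Without Tomato- replicate 4, which leaves every Tomato- library at 0, the unadjusted p in edgeR was 0.00981 and the adjusted p was 0.659. The fitted log2 fold change was then 12.80, which is no bound because the Tomato- group has no counts left. It was 9.82 in edgeR with the replicate number as a block and 6.69 in limma voom without one. Rab2b had 75.9 CPM in Tomato+ replicate 5 and 95.7 and 112 CPM in Tomato- replicates 3 and 4.

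The remaining 4 members of that role were seen in 2 libraries each. Rab6b, the relative of Rab6a known from neurons, had 325 CPM in Tomato+ replicate 1 and 141 CPM in Tomato- replicate 3. Rab18, of lipid droplets and the endoplasmic reticulum, had 85.5 and 0.436 CPM in Tomato+ replicates 4 and 5 and 0 counts in Tomato-. Rab36 had 36.3 and 8.28 CPM in Tomato+ replicates 1 and 5 and likewise none in Tomato-. Rab43 had 1.55 CPM in Tomato+ replicate 4 and 1.89 CPM in Tomato- replicate 4. Counts in Tomato+ alone were found for 3 members, Rab18, Rab36 and Rab21, and counts in Tomato- alone for 2, Rab3d and Rab40b, each of which had a single count. All 5 were seen in at most 2 libraries each. Of the 6 members with other or less known roles, Rab28 had 3.96 and 72.6 CPM in Tomato+ replicates 4 and 5 and 64.3 CPM in Tomato- replicate 4, and Rab40b had 1 count in Tomato- replicate 5. The 17 members not named so far (Rab13, Rab15, Rab17, Rab19, Rab20, Rab23, Rab25, Rab26, Rab30, Rab33a, Rab33b, Rab34, Rab39, Rab39b, Rab40c, Rab42 and Rab44) had 0 counts in every library.

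Of the transcripts of proteins that run the Rab cycle, none of those described here passed the test. Rabac1, which encodes a prenylated Rab acceptor, stood at 149 ± 142 and 332 ± 243 CPM in the Tomato+ and the Tomato- libraries (log2 fold change -0.85, SE 2.24). The genes of the escort proteins and of the enzyme that attach the lipid (Chm, Chml, Rabggta and Rabggtb) had 0 counts.

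Of 24 exchange factor genes in the table, 10 had counts and 1, Dennd5a, was tested (log2 fold change 2.38, SE 2.77). Rgp1, a subunit of the exchange factor for Rab6, had 462 and 127 CPM in Tomato+ replicates 3 and 4 and 1 count in a Tomato- library. Of 20 genes of GTPase activating proteins, 8 had counts and none was tested. Rabgap1l led them with 31.3 ± 41.8 and 43.4 ± 97.0 CPM, followed by Tbc1d10b with counts in 1 library.

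Effectors were counted for 10 of 33 genes, of which 2 were tested. Bicd2, an adaptor that links Rab6 vesicles to the dynein motor, had counts in 9 libraries, at 675 ± 281 and 679.8 ± 588 CPM (log2 fold change 0.20, SE 1.32). Sytl4, which encodes the Rab27 effector granuphilin, had 1412, 0.461, 157 and 461 CPM in Tomato+ replicates 2 to 5 and 597 and 299.5 CPM in Tomato- replicates 3 and 4 (log2 fold change 1.18, SE 2.63). Unc13d, the gene of the Rab27 effector Munc13-4 that primes granules for release, was named after its values were seen. It had 1194 and 222 CPM in Tomato+ replicates 1 and 5 and 64.4 and 3.96 CPM in Tomato- replicates 3 and 4. Tomato+ replicate 2, which held the highest Sytl4 level, had 0 counts of Rab27b.

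Other families of small GTPases were detected at larger shares than the 50% of the Rab genes. Counts were found for 13 of 15 Ras and Rap genes and for 16 of 22 Arf, Arl, Sar and Ran genes. Rap1b, the Rap protein that activates platelet integrins, had counts in every library, at 2947 ± 708 and 3837 ± 1011 CPM. The sums were 3804 ± 605 and 4485 ± 589 CPM for Ras and Rap, and 876 ± 254 and 628 ± 454 CPM for the Arf group. In the former 7 genes were tested and in the latter 3, and 0 passed.

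The platelet identity of the libraries was checked with 11 marker genes. All 11 had counts in every library, with sums of 44276 to 62607 CPM in the Tomato+ and 52429 to 65206 CPM in the Tomato- libraries, led by Ppbp. Markers of other cells were counted at smaller shares. Counts were found for 1 of 5 B cell genes (Cd37), 1 of 6 T and NK cell genes (Nkg7) and 2 of 10 neutrophil genes (led by Clec4d). Of 7 red cell genes, 3 had counts (led by the haemoglobin row Beta-s). Of 7 endothelial genes, 4 had counts, led by Pecam1, which platelets express too. Of 7 monocyte genes, 3 had counts, led by Lyz2 at 7672 ± 1117 and 7857 ± 1189 CPM in the Tomato+ and the Tomato- libraries. Lyz2 had counts in all 10 libraries. F13a1, of the same list, had them in 9, at 1002 ± 475 and 711 ± 682 CPM. In bulk samples, the counts of Lyz2 and F13a1 do not show which cell type, platelets included, they came from. The red cell genes summed to 1.38 to 338 CPM in the Tomato+ libraries and to 47.7 to 3440 CPM in the Tomato- libraries. Whether transcripts of red cells, monocytes or any other of these cell types play a part in the Rab values was not tested.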

How the data were processed

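Platelet RNA of 10 libraries (5 Tomato+, 5 Tomato-) was made into cDNA by Smart-seq+ from polyadenylated RNA and into Nextera XT libraries, per the labels' protocols. The deposited table holds unnormalized read counts, 1 row per gene symbol. Trimmomatic, FastQC, STAR, featureCounts and the build mm10 are named in the submitters' processing notes; annotation, strandedness and the handling of multiply mapped reads were not given in the sources used here, so that a Rab gene cannot be told apart from a gene that overlaps it on either strand. CPM used the sum of all rows.

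The whole table was tested with the robust quasi-likelihood test of edgeR 4.0.16 (R 4.3.3, TMM factors, default filter with minimum count 10 and minimum total 15), with group as the sole term and Benjamini-Hochberg adjustment at 0.05 over all 1016 genes kept. DESeq2 1.42.0, limma 3.58.1 (voom), scaling by total counts, other filters, a replicate block and leaving out libraries were alternatives. The script was tested on simulated data. All 45 pairs of libraries differed by more than counting error (chi-square over its degrees of freedom lowest 510). Coordinates, exon lengths and sequences came from GENCODE M21 (GRCm38, the assembly that mm10 names), in which all 58 Rab rows were found, 2 through older symbols in RefSeq.

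The rule for the members used symbols alone, but the rule, the role groups and the lists were set with earlier results of these data known. By rule, every Rab gene may be named, values by library are given for the 12 highest by CPM and for those in every library, and the 2 highest of each Rab cycle list and the highest of each marker list are named. Some items that this rule names are not reported here.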

Additional observations from a re-analysis of the deposited data

Results flagged for a closer look

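In 32 of 57 sets of 5 libraries of a group, 1 library lay far from the other 4 by Dixon's test, which chance alone would mark in about 1 set in 20 for values with a normal spread. In 17 of the 32 the other 4 libraries were at 0 counts. Dixon's test marks such a set whatever the size of the remaining value, even at 1 count, so the share of 1 in 20 does not apply to these 17. No explanation was tested.

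In Tomato+, replicate 1 stood apart for Rab6b (325 CPM), Rab35 (87.7 CPM) and Rab36 (36.3 CPM), replicate 2 for Rab8a (9.64 CPM), and replicate 3 for Rab1 (2.92 CPM) and Rab5a (0.307 CPM). Replicate 4 stood apart for Rab18 (85.5 CPM), Rab5b (73.0 CPM), Rab21 (30.3 CPM) and Rab43 (1.55 CPM), and replicate 5 for Rab4b (291 CPM), Rab2b (75.9 CPM), Rab28 (72.6 CPM) and Rab12 (66.6 CPM).

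In Tomato-, replicate 1 stood apart for Rab5c (294 CPM), and replicate 2 for Rab11b (1168 CPM) and Rab7 (134 CPM). Replicate 3 did so for Rab6b (141.3 CPM), Rab4b (141.2 CPM), Rab8a (122 CPM), Rab35 (27.5 CPM) and Rab1 (0.0946 CPM). Replicate 4 did so for Rab37 (137 CPM), Rab2a (114 CPM), Rab12 (86.3 CPM), Rab28 (64.3 CPM), Rab43 (1.89 CPM) and Rab3d (0.0944 CPM), and replicate 5 for Rab10 (1297 CPM), Rab5b (553 CPM), Rab14 (456 CPM) and Rab40b (0.185 CPM).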

How the results depend on the processing

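The count of Rab genes called was 0 in all 18 other settings, and 0 of 205 log2 fold changes of the 12 tested Rab genes passed. Over all genes, 1 was called in DESeq2, 1 in limma voom without a block and 2 in limma voom with a replicate block, an alternative chosen after seeing the data. With the replicate number as a block, edgeR called 0 genes and 0 Rab genes. The labels do not say that a number marks a shared animal or batch, and same-numbered libraries did not deviate together (correlations -0.107 to 0.119, 2 of 5 highest with their own number), so the numbers were not taken to pair the samples. Direction turned in 28 of the 205 values, and Rab22a, Rab5c and Rab2a had no turn in any setting. With 1 library left out, the log2 fold change ran from -0.61 to 0.032 for Rab27b, from -0.21 to 0.51 for Rab11a, from -0.65 to 0.43 for Rab6a, from -0.79 to 1.51 for Rab11b, from -0.77 to 0.58 for Rab8b, from -0.71 to 6.14 for Rab14 and from -1.5 to 1.11 for Rab7. For the genes that did not turn when 1 library was left out, it ran from 0.047 to 0.81 for Rab22a, from 0.029 to 2.02 for Rab10, from -1.42 to -0.030 for Rab1b, from 0.19 to 2.21 for Rab5c and from 1.44 to 12.80 for Rab2a. Scaling by total counts gave -0.070 for Rab11a. With the replicate block, edgeR gave 0.41 for Rab6a, 0.70 for Rab11b, 0.30 for Rab1b and 0.48 for Rab8b, and limma voom gave 0.19 for Rab1b. Without a block, limma voom gave -0.99 for Rab10, 2.44 for Rab6a, 2.32 for Rab11b and 1.76 for Rab1b. Without the 3 libraries with under 1000 detected genes the value was -0.017 for Rab11a, 0.50 for Rab11b and 0.14 for Rab7. The cause was not tested. Detected Rab genes were 27 at 10 counts and 28 after thinning to the smallest total.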
